A study of Mus musculus with 6 samples.

Results

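Circular RNAs (circRNAs) from genes of the extracellular matrix were taken from a table of back-spliced reads in mouse aortas. A member was any entry whose host gene symbol began with Col and a digit, with Lama, Lamb or Lamc and a digit, with Fbn, Ltbp, Adamts, Hmcn or Nid and a digit, or was Fn1 or Eln. The rule took 122 of the 10023 entries in the table. Entries with the same end and strand whose starts lay 1 base apart were summed as 1 circle, which left 121 of 9548 circles, from 35 of 3981 host genes, with 309 of 37393 back-spliced reads. Of the 122 entries, 111 were exonic circles and 11 were ciRNAs, which are circles made of intron sequence. The rule also took Col4a3bp, which encodes a ceramide transfer protein and is no matrix gene, with 1 circle and 1 read.

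The aortas came from male ApoE-/- mice on a C57BL/6 background, which lack apolipoprotein E and develop atherosclerotic plaques. From the age of 6 weeks the mice were fed a high-fat diet (HFD) or a normal diet (ND) for 12 weeks, and each diet had 3 aorta libraries, numbered 1 to 3. Both diet groups carried the ApoE deletion, so no aorta without it was compared. The RNA came from whole aortas and so from all cell types of the vessel wall, and the age, genotype and sex were shared by the groups.

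The aortic wall owes its elasticity and strength to its matrix. Smooth muscle cells lay down elastin, which is assembled on fibrillin microfibrils, and fibrillar collagens, while laminins, nidogens and type IV collagens form the basement membranes around the cells. Latent TGF-beta binding proteins (LTBPs) anchor the latent form of the growth factor TGF-beta in this matrix, and ADAMTS proteases cut proteoglycans and process procollagens. A circRNA arises when the end of a downstream exon is joined back to the start of an upstream exon of the same gene, and sequencing sees it as reads over this junction, here called back-spliced reads. The number of such reads says nothing of the amount of the linear mRNA or protein of the host gene.

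Ltbp1 was the main matrix host gene. It held 126 of the 309 reads (40.8%) and 23 of the 121 circles, and ranked 26th by reads and 3rd, in a tie, by number of circles among all host genes of the table. Its most abundant circles were mmu_circ_0007013, made of exons 6 to 7 (chr17:75225156-75227241, plus strand, 500 bases when spliced), and circRNA611, made of exons 15 to 20 (chr17:75282328-75296343, 694 bases). All coordinates are on GRCm38, and Ltbp1 exons are numbered along the 35 exons of ENSMUST00000234490.1. The junctions of 5 Ltbp1 circles are printed because 4 of them combine the same splice sites, while mmu_circ_0007013 shares none with these 4. In each, the last 20 bases of the last exon are in lower case and the first 20 bases of the first exon in capitals.
mmu_circ_0007013, exon 7 to exon 6: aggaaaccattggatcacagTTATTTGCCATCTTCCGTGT
circRNA611, exon 20 to exon 15: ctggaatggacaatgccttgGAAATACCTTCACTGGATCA
circRNA612, exon 25 to exon 15: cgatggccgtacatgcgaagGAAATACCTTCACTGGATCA
circRNA609, exon 20 to exon 12: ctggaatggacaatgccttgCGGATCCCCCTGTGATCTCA
circRNA610, exon 25 to exon 12: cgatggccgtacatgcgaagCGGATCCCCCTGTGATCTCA
The capitals of circRNA611 and circRNA612 are the same, as are those of circRNA609 and circRNA610, and the lower case of circRNA611 and circRNA609, and that of circRNA612 and circRNA610. These 4 circles thus came from the starts of exons 15 and 12 and the ends of exons 20 and 25, in each of the possible combinations.

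All 24 Ltbp1 entries had both ends at annotated exon edges. The 23 circles used 9 acceptors, the sites at the start of the first exon, and 12 donors, the sites at the end of the last exon, and 22 of the 23 shared a site with another Ltbp1 circle. The acceptor of exon 15 had 42 reads, that of exon 6 had 41 and that of exon 12 had 19. Among donors, exon 20 had 42 reads, exon 7 had 36, exon 25 had 21 and exon 32 had 11. Exon 10 was joined back to exon 6 by 4 reads of circRNA6372, all in HFD aortas, with 1, 3 and 0 reads in the replicates numbered 1, 2 and 3. circRNA612 went the other way, with 0 reads in each HFD aorta against 1, 4 and 1 in ND replicates 1, 2 and 3. Neither of these 2 circles met the criteria for a difference (adjusted p = 0.606 for each, edgeR's quasi-likelihood test). circRNA6372 was singled out after its values were seen.

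**Figure D1:**
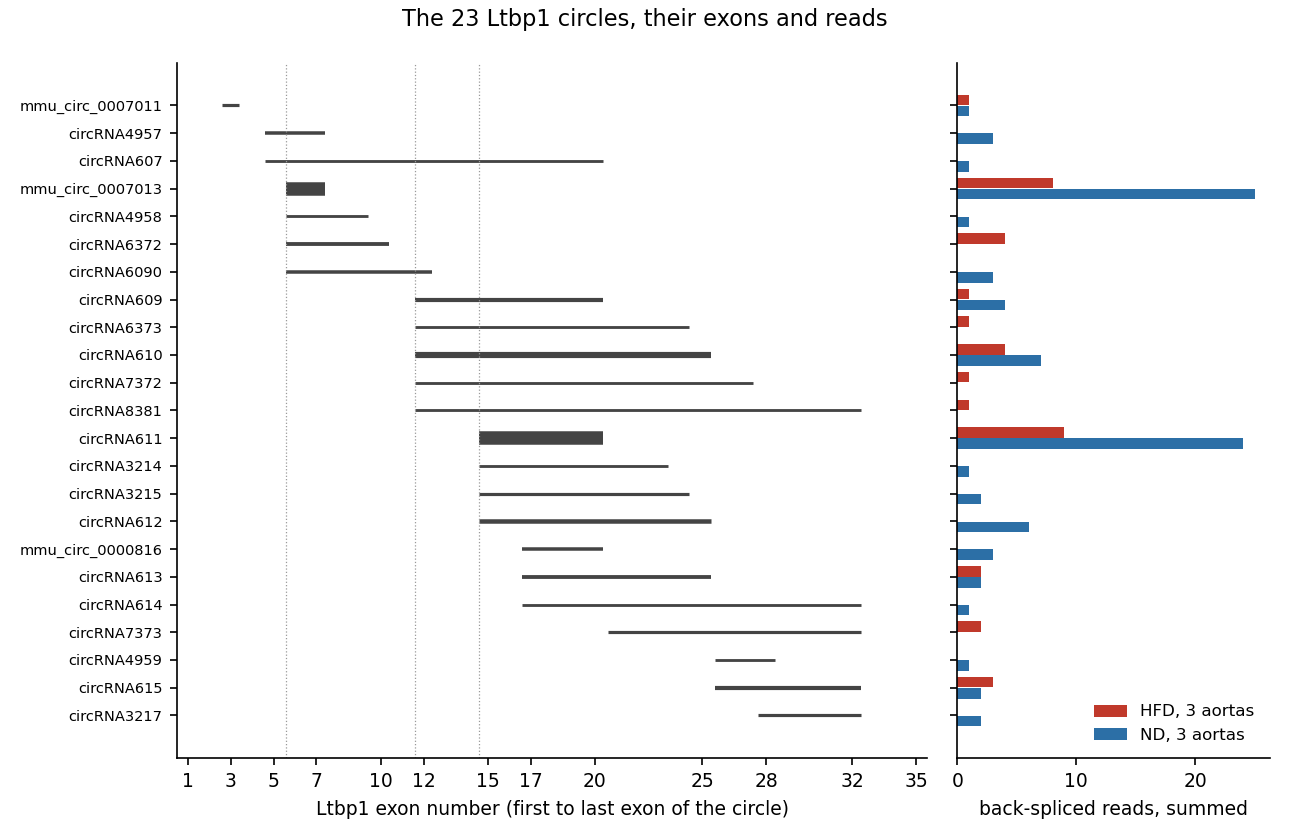
The 23 circles of Ltbp1, with the exons each spans on the left (x axis, exon number, line width grows with reads, dotted lines at the starts of exons 6, 12 and 15) and the back-spliced reads summed over the 3 aortas of each diet on the right. mmu_circ_0007013 and circRNA611 had 33 reads each, and no other Ltbp1 circle had more than 11.

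The comparison of interest was between the diets. It was made on counts with edgeR's quasi-likelihood test and TMM normalization, fitted over all circles or all host genes that were seen in 2 or more of the 6 aortas. The study's criteria were used, which ask for an unadjusted p under 0.05 together with a log2 fold change above 1 or below -1. Pairs of values joined by against give HFD first, in replicate order. Log2 fold changes are HFD over ND, and adjusted p-values are Benjamini-Hochberg values over all features tested. Normalized reads are counts scaled to the mean effective library size. The libraries had 4694 to 5621 back-spliced reads on the HFD and 7142 to 7585 on the ND, so raw reads favour the ND. A count of 0 allows up to 3 reads, taken here as a floor for each library, and since PCR copies of a read were not told apart this covers counting error only.

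Ltbp1, whose protein holds latent TGF-beta in the matrix, had 16, 12 and 9 back-spliced reads in HFD replicates 1 to 3, against 36, 20 and 33 in ND replicates 1 to 3. The raw reads of the diets did not overlap, but the normalized reads did, because HFD replicate 1 (19.5) lay just above ND replicate 2 (18.9). The mean was 14.1 ± 4.8 normalized reads for the HFD against 26.4 ± 6.8 for the ND (SD, n = 3 each). The log2 fold change was -0.91 (standard error 0.39, unadjusted p = 0.0198, adjusted p = 0.674, edgeR), short of the fold criterion, and the exact permutation test gave p = 0.2, where 0.1 is the smallest p that 3 against 3 allows. Without HFD replicate 1 the log2 fold change was -1.09 (adjusted p = 0.746, edgeR) and without ND replicate 2 it was -1.13 (adjusted p = 0.598, edgeR), and both met the criteria. Without each of the other 4 aortas it was between -0.77 and -0.68 (adjusted p = 0.580 to 0.791, edgeR), and these fits, DESeq2 and library size alone had no unadjusted p under 0.05. In whole aortas, fewer cells of a type and less RNA per cell cannot be told apart.

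The 2 main Ltbp1 circles were lower on the HFD by their means, without meeting the criteria. mmu_circ_0007013 had 2, 2 and 4 reads in HFD replicates 1 to 3, against 11, 6 and 8 in ND replicates 1 to 3. Its normalized reads did not overlap, at 3.1 ± 1.5 on the HFD and 7.4 ± 2.2 on the ND (log2 fold change -1.22, standard error 0.80, unadjusted p = 0.126, adjusted p = 0.606, edgeR, exact permutation p = 0.1). circRNA611 had 6, 1 and 2 reads against 11, 2 and 11, and its diets overlapped (log2 fold change -0.97, standard error 0.78, adjusted p = 0.714, edgeR). Together these 2 circles had 8, 3 and 6 reads against 22, 8 and 19, and the other 21 Ltbp1 circles had 8, 9 and 3 against 14, 12 and 14. circRNA611 met the criteria only when HFD replicate 1 was left out (log2 fold change -2.02) and mmu_circ_0007013 only when ND replicate 2 was left out (-1.47).

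Of the 121 matrix circles, 24 had reads in 2 or more aortas and were tested. None met the criteria, against a background of 3.40% of the 2646 circles tested, and none had an unadjusted p under 0.05. Among the entries as deposited, 0 of 24 met them, against 4.06% of 2564. At the criteria, DESeq2 called 0 of the 24, against 0.794% of all circles tested, and limma 0, against 3.97%. The smallest adjusted p among matrix circles was 0.606 (edgeR). The diets did not overlap in normalized reads, lower on the HFD, for 2 matrix circles, mmu_circ_0007013 and circRNA612, where 4.54% of all circles tested did so, and for none in the opposite direction, where 2.72% did. The median log2 fold change was -0.05 over the 24 and -0.13 over all circles tested, with 12 of the 24 below 0. Of the 97 circles not tested, each had reads in a single aorta, and 64 of the 121 had 1 read in all. Matrix circles seen in a single aorta made up 80.2%, against 72.3% of all circles.

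**Figure D2:**
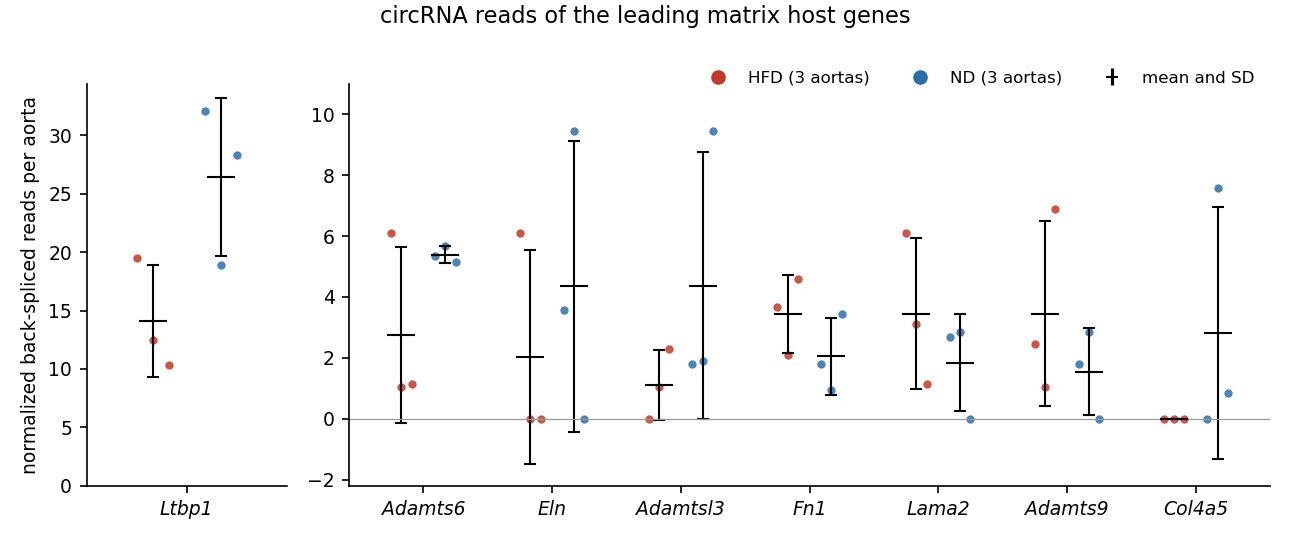
Normalized back-spliced reads per aorta (y axis) of the 8 matrix host genes with the most reads, Ltbp1 on its own scale, points for single aortas and bars for the mean and SD of 3. Ltbp1 averaged 14.1 on the HFD and 26.4 on the ND with a slight overlap, and the other genes had means under 6.

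At the level of host genes, 19 of 35 were tested and 2 met the criteria, Col3a1 and Col4a5, against a background of 4.46% of 2240 host genes (2.77% lower and 1.70% higher on the HFD). Neither had an adjusted p under 0.05. Col3a1, the chain of the fibrillar type III collagen, had 0, 5 and 1 reads in HFD replicates 1 to 3 and was at 0 on the ND (log2 fold change 4.19, standard error 2.01, p = 0.0367, adjusted p = 0.674, edgeR, exact permutation p = 0.4). Col4a5, a chain of the basement membrane type IV collagen, was at 0 on the HFD and had 0, 8 and 1 reads in ND replicates 1 to 3 (log2 fold change -4.53, standard error 2.00, p = 0.0237, adjusted p = 0.674, edgeR, exact permutation p = 0.4). In both, most reads came from 1 aorta and the diets overlapped at 0, and with a diet at 0 the size of the fitted fold change depends on the prior count. Col3a1 lost its call with DESeq2, limma, a replicate block, each ND aorta left out (log2 fold changes 4.16 to 4.21) and exonic entries alone (2.82). It was not tested without HFD replicate 2 or 3, and its log2 fold change ran from 1.34 to 4.83 over the alternatives. Col4a5 lost its call with DESeq2, limma, a replicate block and each HFD aorta left out (-4.53 to -4.50). It was not tested without ND replicate 2 or 3, and its log2 fold change ran from -5.05 to -1.41 over the alternatives. Of the 3 circles of Col4a5, circRNA2835 (exons 5 to 19, chrX:141571838-141592059) had 5 reads, all in ND replicate 2.

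The other host genes were weighed by the same fit. Adamtsl1, a matrix protein related to the ADAMTS proteases without a protease domain, had the only tested host gene profile without overlap, 0, 0 and 0 reads against 1, 1 and 2, all at or under the floor (adjusted p = 0.674, edgeR), where 5.89% of host genes tested were lower on the HFD without overlap and 3.66% were higher. The median log2 fold change over the 19 was 0.26, against -0.17 over all host genes tested, and 9 of the 19 lay below 0. Adamts6, an ADAMTS protease, had 5, 1 and 1 reads against 6, 6 and 6 (log2 fold change -0.97, standard error 0.90, adjusted p = 0.907, edgeR). Its log2 fold change was -2.07 without HFD replicate 1, -0.52 without HFD replicate 2 and -0.57 without HFD replicate 3. Adamtsl3, another ADAMTS-like protein, had 0, 1 and 2 reads against 2, 2 and 11, of which 5 in ND replicate 3 were circRNA5220 (adjusted p = 0.674, edgeR). Lama2, a laminin alpha chain, had 5, 3 and 1 reads against 3, 3 and 0, and Adamts9, another ADAMTS protease, had 2, 1 and 6 against 2, 3 and 0. In normalized reads, all of these but Adamtsl1 overlapped between the diets, while the raw reads of Adamts6 did not. These genes were chosen for mention after their values were seen.

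**Figure D3:**
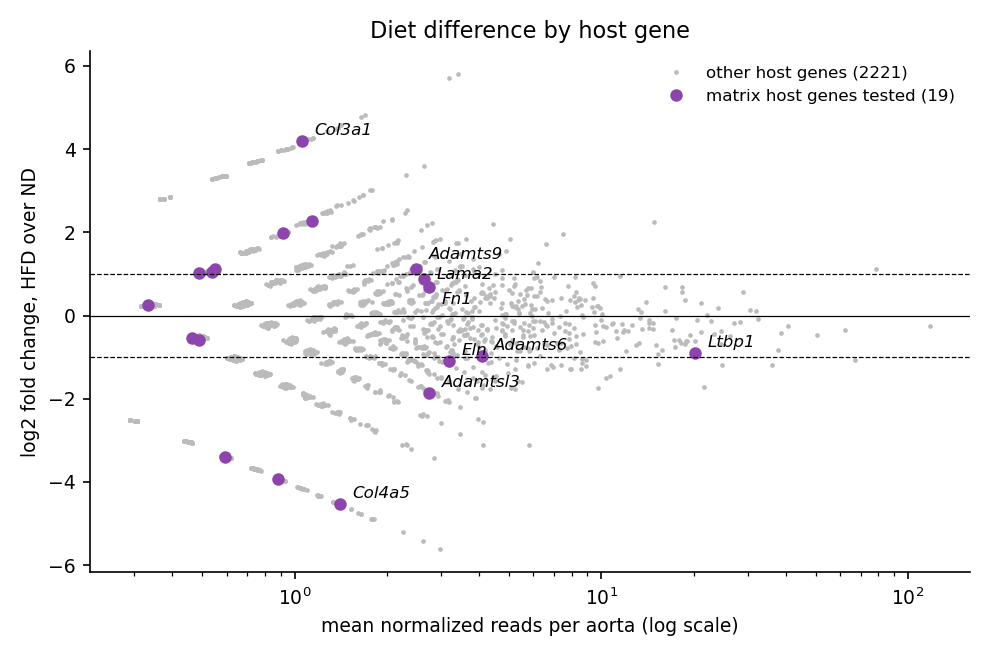
Log2 fold change HFD over ND (y axis) against mean normalized reads per aorta (x axis, log scale) for the 2240 host genes tested, the 19 matrix genes in purple and dashed lines at the fold criterion. Col3a1 (4.19) and Col4a5 (-4.53) lie at low reads among genes with zeros in a diet, and Ltbp1 (-0.91) lies at the high end of the reads.

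By family, the LTBPs had 37 reads in HFD and 92 in ND aortas, nearly all from Ltbp1, since Ltbp4 had 2 reads and Ltbp2 had 1. The 8 ADAMTS genes had 26 reads on each diet, from 30 circles. The 9 collagen genes had 16 and 22 reads from 21 circles, and no collagen circle had reads on both diets. Only 2 of the 21 had reads in 2 or more aortas, so the others could not. Of all circles of the table, 2028 of 9548 had reads on both diets. Within the collagens, the fibrillar types I, III and V had 1, 6 and 4 reads against 1, 0 and 2. The basement membrane types IV and XVIII had 0, 2 and 0 against 4, 8 and 5. As shares of the back-spliced reads of an aorta, the basement membrane collagens were at 0 to 0.0356% on the HFD and 0.0527% to 0.112% on the ND, without overlap, on 19 reads in all. The laminins and nidogens, also of the basement membrane, went the other way, with 8, 3 and 5 reads against 5, 4 and 1. Their shares overlapped between the diets. The lack of overlap thus held for the collagens of the basement membrane and not for its laminins and nidogens. The collagen grouping was made after values of these data were known, and no test was made of either set. Elastin (Eln) had 5, 0 and 0 reads against 4, 10 and 0. Laminins had 13 and 9 reads, ADAMTS-like genes 3 and 20, nidogens 3 and 1, hemicentin (Hmcn1) 0 and 3, and fibrillin (Fbn1) 2 and 0.

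The share of back-spliced reads on all matrix circles was 0.980%, 0.569% and 0.738% in HFD replicates 1 to 3, against 0.910%, 0.854% and 0.869% in ND replicates 1 to 3. The ratio of the means was 0.87, and the diets overlapped. Without Ltbp1 the ratio was 1.08. The share of Ltbp1 alone was 0.341%, 0.213% and 0.185% against 0.475%, 0.280% and 0.441%, a ratio of 0.62.

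Circles of the smooth muscle list as a whole were, like those of Ltbp1, a smaller share of the reads on the HFD. The 13 genes listed as smooth muscle markers, 9 of which had circles, held 0.308% to 0.575% of back-spliced reads on the HFD and 0.686% to 0.976% on the ND. Acta2 was among the 9, while Tagln, Cnn1, Kcnmb1 and Des were at 0. Itga8 held 139 of these reads and was the only one of the 6 tested genes of the list to meet the criteria, where 2.77% of all host genes tested were called lower. Of the 6, 5 had a log2 fold change below 0, and their median was -0.66, against -0.17 over all host genes tested. This was not particular to smooth muscle. Of the 6 tested adipocyte markers, 5 were also below 0, with a median of -0.778, and 1 of them, Acaca, was called lower. The medians of the fibroblast and of the skeletal and cardiac muscle markers lay below 0. Those of the endothelial and of the macrophage and leukocyte markers lay above 0. Without Itga8 the smooth muscle list held 0.185% to 0.426% on the HFD and 0.294% to 0.428% on the ND, with overlap, a ratio of 0.74 in place of 0.52. Per 100 reads of this list, Ltbp1 had 54.6 ± 8.8 reads for the HFD and 44.9 ± 3.9 for the ND (SD, n = 3 each), a ratio of 1.22 in place of 0.62, and the diets overlapped. With Itga8 taken off the list, Ltbp1 had 90.8 ± 10.1 reads per 100 against 105 ± 10.5, again with overlap. Circles of 17 macrophage and leukocyte markers held 0.362% to 0.694% on the HFD and 0.364% to 0.455% on the ND, with overlap, and Cd68, Itgax, Cd74 and Trem2 were at 0. The shares also overlapped for fibroblast (0 to 0.123% against 0.0140% to 0.0268%), endothelial (0.0712% to 0.164% against 0.0280% to 0.0936%), adipocyte (0.125% to 0.320% against 0.237% to 0.490%) and skeletal and cardiac muscle markers (0.142% to 0.185% against 0.0700% to 0.211%). The fibroblast list holds a matrix member, Col1a1, with 5 of its 12 reads. The part of cell composition in the Ltbp1 values was not tested.

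**Figure D4:**
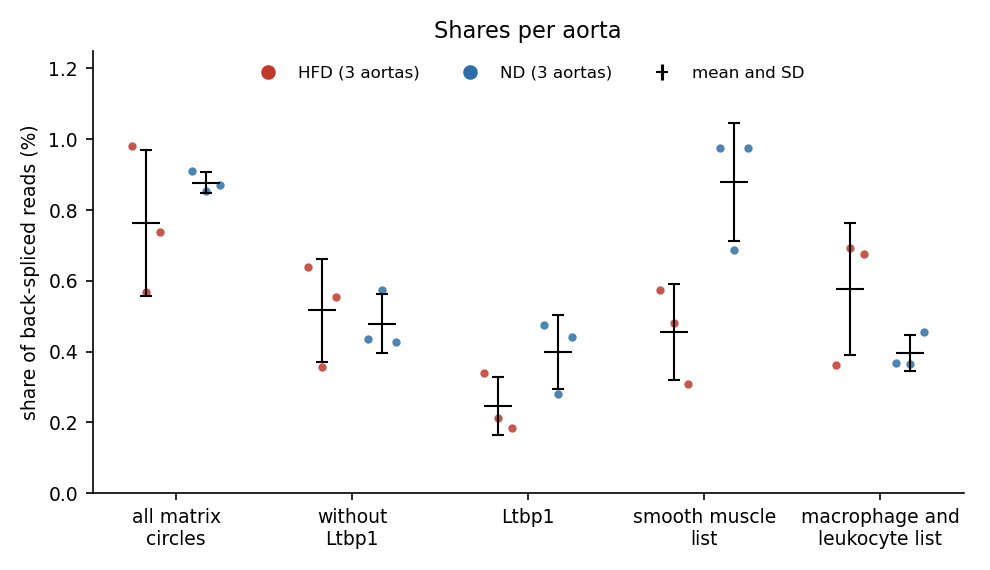
Share of all back-spliced reads in an aorta (y axis, %) held by matrix circles, by matrix circles without Ltbp1, by Ltbp1, and by circles of the smooth muscle and the macrophage and leukocyte lists, with points for single aortas and bars for the mean and SD of 3. The smooth muscle list lies at 0.308% to 0.575% on the HFD and 0.686% to 0.976% on the ND, but overlaps without Itga8, and all matrix circles overlap.

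Other genes of the matrix were looked up from fixed lists. Of 82 symbols of further matrix genes, such as fibulins, proteoglycans, tenascins and thrombospondins, 26 had circles, 10 were tested and 1 met the criteria. This was Gpc6, higher on the HFD, where 1.70% of all host genes tested were called higher. Gpc6, a cell surface heparan sulfate proteoglycan, had 9, 7 and 2 reads against 0 in each ND aorta (log2 fold change 5.80, standard error 1.52, adjusted p = 0.0522, edgeR). Of 60 symbols of matrix receptors and matrix-modifying enzymes, 29 had circles, 14 were tested and 3 met the criteria. These were Itga8, Itga9 and Itgb8, all integrin chains and all lower on the HFD, where 2.77% of all host genes tested were called lower. Itga8, the integrin alpha 8 chain, whose receptor binds fibronectin and latent TGF-beta, had 7, 14 and 6 reads against 43, 28 and 41 (log2 fold change -1.71, standard error 0.40, adjusted p = 0.00817, edgeR). Itga9 had 5, 4 and 3 reads against 17, 8 and 13, and Itgb8 had 0, 0 and 0 against 0, 5 and 3, with the diets overlapping at 0 (adjusted p = 0.674 for each, edgeR). The median log2 fold change was 0.17 over the 10 and -0.71 over the 14, against -0.17 over all host genes tested. Itga8 is also on the smooth muscle list. Some genes were listed under an old and a new symbol (Ctgf and Ccn2, Cyr61 and Ccn1, Leprel1 and P3h2), and none of these had circles.

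In their structure, matrix circles differed among families. Both ends lay at annotated exon edges in 106 of 111 exonic entries (95.5%), against 98.1% of the exonic entries of the rest of the table. The median circle spanned 5 exons and 734.5 spliced bases, against 4 exons and 549 bases in the rest. The first exon of the circle was exon 2 of its transcript in 10 of 106 (9.43%), against 29.1%, and 2 of the 106 were single exons. These comparisons are descriptions, since circles of 1 gene share its exons. Outside Ltbp1, 41 of 82 matrix circles shared an acceptor or donor with another circle of their gene. In Adamts6, 10 of 12 circles did so, and exon 2 was the first exon of 3 of them. In Eln, 3 circles with 7 reads, all on the ND, began at exon 7, and 3 Fn1 circles with 7 reads began at exon 20. The intron upstream of a matrix circle had a median of 7256 bases, against 7550 bases in the rest of the table. Among families with at least 5 circles, the median ran from 1318 bases in elastin and 1629 in fibronectin, where 3 of 5 circles shared 1 intron in each, to 9627 in ADAMTS and 10217 in laminins.

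Many matrix circles held a whole number of codons. Of the 94 matrix entries made wholly of coding exons, 58 (61.7%) had a length divisible by 3, against 40.1% of 6759 in the rest of the table. The share was 5 of 5 in elastin, 10 of 12 in collagens, 4 of 5 in fibronectin and 17 of 24 in Ltbp1, but 8 of 17 in ADAMTS, 5 of 13 in laminins and 3 of 10 in ADAMTS-like genes. For single exons, the length was divisible by 3 in 64.6% of the coding exons within matrix circles and in 38.5% of those in other circles, with an exon counted once for each circle that held it. Ltbp1 gave 216 of these 601 exon counts, and without Ltbp1 the share was 52.2%. Of the 35 exons of Ltbp1 themselves, 27 had a length divisible by 3. Exons that encode collagen triple helix repeats, elastin repeats or the EGF-like repeats of LTBPs often begin and end at the same place of the codon. Of the matrix circles with a whole number of codons, the 2 shortest with at least 3 reads are printed whole, with the 10 bases on each side of the back-splice in capitals, because both come from genes with such repeats. A shorter one, circRNA7878 of Col3a1 (exons 30 to 31, 207 bases), had 1 read. The first is from Eln, exons 3 to 7 (chr5:134729646-134737199, minus strand, 237 bases), with 3 reads, all in HFD replicate 1. The second is from Col18a1, exons 13 to 14 (chr10:77077159-77077842, minus strand, 222 bases), with 3 reads, all in ND replicate 1.
circRNA7082 of Eln: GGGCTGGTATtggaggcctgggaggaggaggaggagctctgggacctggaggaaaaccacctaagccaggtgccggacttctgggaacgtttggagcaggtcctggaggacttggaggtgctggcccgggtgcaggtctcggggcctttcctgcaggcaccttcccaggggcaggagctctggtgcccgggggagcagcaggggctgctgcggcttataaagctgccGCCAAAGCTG
circRNA508 of Col18a1: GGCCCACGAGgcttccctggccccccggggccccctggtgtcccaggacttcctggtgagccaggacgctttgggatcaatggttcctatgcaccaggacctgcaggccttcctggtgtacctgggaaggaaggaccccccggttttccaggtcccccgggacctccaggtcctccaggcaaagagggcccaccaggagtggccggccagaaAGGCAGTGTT
Both were chosen for their length and reads after these were seen, and neither was tested.

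**Figure D5:**
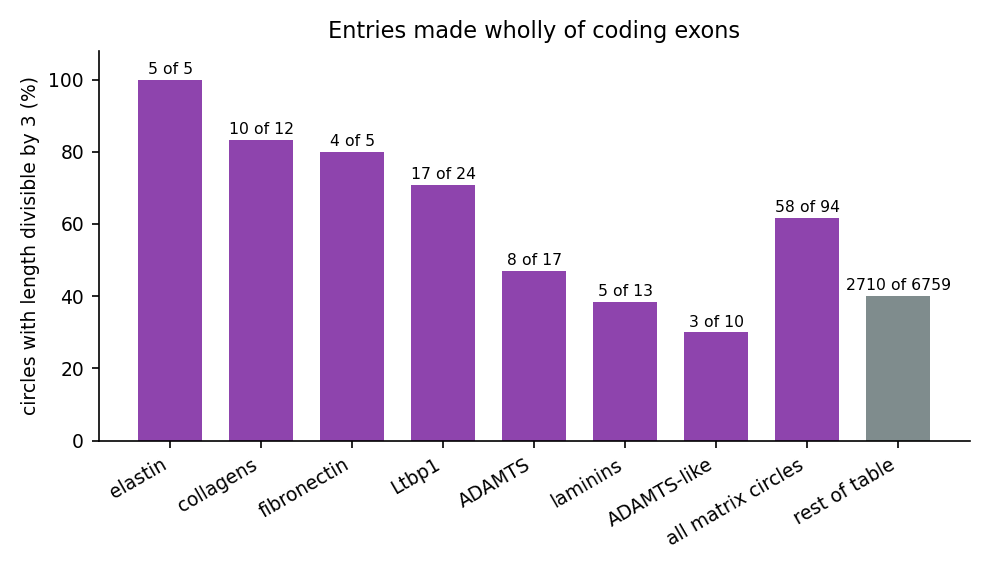
Share of exonic entries made wholly of coding exons whose spliced length is divisible by 3 (y axis, %), by family and in the rest of the table, with the counts above each bar. Elastin (5 of 5) and collagens (10 of 12) lie above the rest of the table (2710 of 6759), and ADAMTS-like genes (3 of 10) lie below it.

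The remaining abundant circles came from ADAMTS and ADAMTS-like genes, Ltbp1 and fibronectin. circRNA1127 of Adamtsl3 (exons 18 to 23, chr7:82556765-82578623) had 0, 1 and 2 reads against 2, 0 and 3. circRNA3661 of Adamts9 (exons 12 to 16, chr6:92887341-92894386) had 2, 0 and 4 reads against 0, 1 and 0 (log2 fold change 2.58, standard error 1.83, adjusted p = 0.612, edgeR), and its log2 fold change was 1.61 without HFD replicate 3 and 4.25 without ND replicate 2. In Adamts6, mmu_circ_0004420 (exons 4 to 7, chr13:104307221-104314383) had 2, 0 and 0 against 2, 3 and 0, and circRNA173 (exons 13 to 15, chr13:104390078-104400006) was the most even, with 1, 1 and 1 against 1, 2 and 0. The diets overlapped for all 4. In Ltbp1, circRNA610, summed from 2 entries, had 3, 0 and 1 reads against 5, 0 and 2, circRNA609 had 1, 0 and 0 against 3, 0 and 1, and circRNA615 (exons 26 to 32) had 2, 1 and 0 against 2, 0 and 0. circRNA4115 of Fn1 (exons 20 to 24, chr1:71615360-71624344, minus strand) was at 0 on the HFD and had 0, 1 and 4 reads in the ND aortas (adjusted p = 0.606, edgeR). Fn1 encodes fibronectin, a glycoprotein that binds integrins and collagens.
circRNA4115, exon 24 to exon 20 of Fn1: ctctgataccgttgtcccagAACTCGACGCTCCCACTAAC
circRNA3661, exon 16 to exon 12 of Adamts9: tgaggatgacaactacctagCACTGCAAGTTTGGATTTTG
circRNA173, exon 15 to exon 13 of Adamts6: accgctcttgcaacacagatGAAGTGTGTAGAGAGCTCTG
These 3 junctions are printed as those of Ltbp1 above, for the most abundant Fn1 circle, the Adamts circle with the highest HFD reads and the matrix circle outside Ltbp1 seen in the most aortas.

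Some Fn1 entries were on the strand opposite to the gene. Fn1 lies on the minus strand, and 2 of its 7 entries, with 5 of its 16 reads, were listed on the plus strand. Exon edges were looked up on the listed strand, so these 2 entries were not compared with the exons of Fn1 itself. They are counted below among entries with no end at an exon edge. Libraries were made with a method that keeps the strand. All Fn1 reads together were 3, 2 and 4 against 2, 1 and 4. The 5 entries on the strand of the gene had 3, 0 and 1 reads against 2, 1 and 4. As a share of back-spliced reads, all entries were at 0.0605% ± 0.0234 against 0.0313% ± 0.0202 (SD, n = 3 each, ratio 1.93), and those on the strand of the gene at 0.0281% ± 0.0326 against 0.0313% ± 0.0202 (ratio 0.90), with overlap in both. With all its entries Fn1 did not meet the criteria, and the reads on the strand of the gene alone were not fitted as a sum. With Col1a1 and Col6a1, 4 matrix entries other than the Eln intron had no end at an exon edge, and their 10 reads were all in HFD replicates 2 and 3. The entry set aside here, circRNA4499 of Eln, had no end at an exon edge either. Its 4 reads were all in ND replicate 2. Over the whole table, such entries held 0.800% to 0.872% of back-spliced reads on the HFD and 0.762% to 0.952% on the ND. Matrix entries were 5 of these 72 entries.

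Intron circles came mostly from collagen genes. The 11 ciRNAs, with 18 reads, came from Col1a1, Col3a1, Col4a2, Col5a1, Col18a1, Eln, Lama4, Adamts1 and Adamts2, and all began at an annotated 5′ splice site, as did 86.4% of the 932 ciRNAs of the table. A ciRNA is usually an intron lariat whose tail beyond the branch point has been trimmed, so it ends short of the 3′ splice site. Of the 11, 5 ended 10 to 60 bases before it, against 242 of the 932 (26.0%), and 4 ended within 1 base of it, against 218 of the 932, and so held the whole intron but for at most 1 base. Of the 6 reads of Col3a1, 4 were ciRNA reads, all in HFD replicate 2. The only matrix ciRNA with reads in more than 1 aorta was ciRNA269 of Eln, with 2 reads in HFD replicate 1 and 2 in ND replicate 2. It covered nearly the same stretch as circRNA4499, an entry listed as exonic with 4 reads in ND replicate 2. The intron runs over 669 bases at chr5:134725799-134726467 (minus strand), and circRNA4499 as listed is that intron without 1 base at its start coordinate. Starts were listed 1 base inside the exon in 953 of 1096 exonic entries of the same notation. ciRNA269 (chr5:134725795-134726463) begins at another annotated 5′ splice site, 4 bases downstream, and ends 4 bases into the next exon. The junctions are shown with the last 20 bases in lower case and the first 20 in capitals.
Eln whole intron: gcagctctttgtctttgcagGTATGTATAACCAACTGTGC
Eln ciRNA269: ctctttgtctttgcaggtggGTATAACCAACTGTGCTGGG
Together these 2 entries held 8 of the 19 Eln reads, so circles of Eln exons had 11.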

How the data were processed

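Back-spliced reads were analysed in the aortas of ApoE-/- mice, 3 libraries on the HFD and 3 on the ND. Per the study's methods, the authors used Cutadapt for trimming, TopHat-Fusion to find back-splices in unmapped reads, and both CIRCexplorer and CIRI for assembly, and versions, genome build and how the callers were combined are not given in the sources used here. The labels and the study's methods name RNase R, which digests linear RNA, for circRNA isolation, and the methods name removal of ribosomal RNA for the libraries. Whether the sequenced RNA was treated with RNase R could not be checked. The authors deposited raw counts of back-spliced reads per entry and aorta, and a signal, SRPBM, which is the count divided by a depth of the library and scaled. That depth was 57.7 to 60.3 M for HFD and 69.8 to 73.7 M for ND libraries. The deposited fold changes and p-values were not used.

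Host genes given as Ensembl identifiers (891, all matched) were named from a gene table. Exon edges and sequences came from GENCODE vM21 (GRCm38), on whose exon edges 98.0% of exonic entries had both ends. Edges were looked up on the strand listed for the entry. Table starts were 1 base inside the exon in 953 of 1096 exonic entries whose flanking introns are given as coordinates (6 of 11 matrix entries, the other 5 having no end at an exon edge), and 1 pair of matrix entries was summed. Exon numbers outside Ltbp1 follow 1 annotated transcript per circle. TMM normalization and the quasi-likelihood test of edgeR 4.0.16 in R 4.3.3 were applied to the counts over all circles or host genes with reads in at least 2 aortas. Standard errors were derived from the F statistic. The permutation tests were two-sided and exact (scipy 1.17.1). Alternatives were DESeq2 1.42.0, limma 3.58.1 on log2 SRPBM plus the smallest non-zero value, other library sizes, filters, a replicate block, exonic entries alone, entries as deposited and each aorta left out. Each library was counted as its own sample. Each pair of libraries within a diet differed beyond sampling error (chi-square over its degrees of freedom, 1.69 to 2.66), which does not show that they came from different animals. No label says whether a library came from 1 mouse or a pool, so p-values measure only the spread between these libraries, which may be technical.

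Values in every aorta are given for host genes with at least 30 reads, for members meeting the criteria, and for the 10 circles with the most reads, 13 with ties at 5 reads. Members, lists and alternatives were chosen with earlier results of these data known, and other named genes after their values were seen. The mRNA libraries were not analysed here.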

Additional observations from a re-analysis of the deposited data

How the results depend on the processing

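No matrix circle met the criteria in 12 of 15 alternatives. Requiring reads in at least 3 aortas gave 1 (circRNA612, among 11 tested, against 6.81% of all circles), and leaving out 1 aorta at a time gave 0 to 1 (1 of 18 without HFD replicate 1, against 3.32%, and 1 of 15 without ND replicate 2, against 2.73%). Of host genes, 2 met the criteria, against 0 with DESeq2 (1.52% of all host genes), 0 with limma on log2 SRPBM (5.04%), 0 of 7 with at least 10 reads (5.56%), 1 of 11 (Adamtsl1) with reads in at least 3 aortas (6.41%), 1 of 16 (Col4a5) with exonic entries only (4.33%), and 0 to 3 with 1 aorta left out (3 of 18 without HFD replicate 1, namely Col3a1, Eln and Ltbp1, against 5.72%, 2 of 16 without ND replicate 2, namely Adamtsl1 and Ltbp1, against 4.15%, 1 of 18 without ND replicate 1, against 4.41%, and 0 without each of the others, against 2.46% to 4.19%). With the replicate number as a block, 0 matrix host genes met the criteria and 41 in all did, against 100. Deviations of same-numbered aortas correlated at -0.063, -0.050 and -0.056. No pairing by number was seen, though at such low counts this cannot exclude a shared batch. Mice of different diets are different animals, so the main fit used no block. Over all host genes, edgeR called 100, DESeq2 34 and limma 113. Library size alone moved the median log2 fold change of all host genes from -0.17 to 0.02 and DESeq2 moved it to 0.01, and the share of calls lower on the HFD was 62.0% with TMM, 47.2% with library size alone and 78.8% with limma. Relative to that median, Ltbp1 was at -0.75 with TMM and between -0.78 and -0.74 with the other scalings, and it was below 0 in all 15 alternatives (-1.13 to -0.68, adjusted p = 0.580 to 0.997). The ratio of the matrix share of reads ranged from 0.74 to 0.98 with 1 aorta left out, and was 0.72 per depth of the authors, where the diets no longer overlapped. No cause of these changes was tested. With 309 reads in all, most matrix circles were under the floor of 3 reads in every aorta, so the lack of a call does not show that the diets were alike. What size of difference could be detected at this depth was not measured.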
